A study of Mus musculus with 6 samples.

Results

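The genes described here encode 10 proteins that neutrophils pack into granules or carry in the cytosol, and they are ordered by the stage of maturation at which the cell makes them. Their rows were found by matching the Ensembl identifiers of the count table to gene symbols, and all 10 were found among the 47729 genes of the table. *Mpo*, *Elane*, *Prtn3* and *Ctsg* stand for the primary granule, *Ltf*, *Camp*, *Ngp* and *Lcn2* for the secondary granule, and *S100a8* and *S100a9* for the late stage. RNA came from the proximal tibial epiphyses of 3 Control mice (strain given as Control (ICR)) and 3 mice of line Longshanks 1 (LS1), all 14 days old. LS1 was bred for a long tibia relative to body mass and Control was bred at random from the same CD-1 background. Both epiphyses of a mouse were pooled into 1 library, the mice of a line came from different families, and neither line carried a transgene or was treated. The dissected piece included bone and its ossification centre beside the cartilage, so marrow cells were part of the sample. In such bulk tissue a smaller number of cells of a type and less RNA per cell cannot be told apart.

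Neutrophils arise in the marrow from myeloid progenitors, and their granules are filled in order. Promyelocytes make the enzymes of the primary granule, myelocytes and metamyelocytes make the antimicrobial proteins of the secondary granule, and the calcium-binding proteins S100A8 and S100A9 build up until they are major proteins of the mature cell's cytosol. The transcripts of the early genes are lost as the cell matures. The balance between the sets thus reads the mixture of stages in a marrow sample only where these RNAs come from neutrophils alone. Whether they do in this whole tissue was not tested. Factors of the C/EBP and ETS families, among them PU.1, are known to drive these genes.

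The short sequences before the start sites are shown because the 4 primary granule genes share a motif on their own strand, a feature that no expression value was used to find. RefSeq promoters on GRCm38.p6 were matched by symbol for 10 of the 10 genes, and the 250 bases before each start were searched on both strands for GAGGAA (a PU.1 type motif, TTCCTC on the other strand) and TTGCNNAA (a C/EBP type motif, TTNNGCAA on the other strand). A RUNX type motif, TGTGGT, was searched in the same way, as was the TATA box written TATAAA. No match of one motif overlapped a match of another. The lines that follow give 30 bases around a match, 5′ to 3′ on the strand of the gene, with the match in capitals. A single motif was printed per gene, the PU.1 type for the primary genes and *S100a8* and the C/EBP type for the others. *Ltf* and *Lcn2* also held the PU.1 type letters, so the lines do not separate the stages by motif.
Mpo, chr11:87793536-87793565, plus strand: aGAGGAAggggctgtggagagagaGAGGAA
Elane, chr10:79886215-79886244, plus strand: tcgtgtcccaggGAGGAAgtagggctgtgg
Prtn3, chr10:79879560-79879589, plus strand: ccaaactggaagGAGGAAgtgggacccaca
Ctsg, chr14:56102773-56102802, minus strand: ctcccagaaggaGAGGAAgaaaaggaagta
Ltf, chr9:111019206-111019235, plus strand: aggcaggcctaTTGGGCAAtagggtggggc
Ngp, chr9:110419659-110419688, plus strand: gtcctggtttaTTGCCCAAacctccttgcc
Lcn2, chr2:32387937-32387966, minus strand: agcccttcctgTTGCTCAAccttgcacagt
S100a8, chr3:90669023-90669052, plus strand: gctggccaagctTTCCTCtataaaagcagc
S100a9, chr3:90695939-90695968, minus strand: ggtaggctgtcTTGCTTAAgatttgggcgg

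All 4 primary granule genes held GAGGAA on their own strand, and *Mpo* held it 2 times. Of all 32851 promoters, 12.4% held it on the strand of the gene and 23.3% on either strand, where it was found in 7 of the 10 members. The matches before *Ltf*, *Lcn2* and *S100a8* were on the opposite strand. The C/EBP type letters were found before *Ltf*, *Ngp*, *Lcn2* and *S100a9* and in 9.56% of all promoters, and *Ngp* held them 2 times. The RUNX type letters were found in 2 of the 10 (*Ctsg* and *S100a9*) and in 14.0% of all promoters. The TATA box letters were found on either strand in 2 of the 10 (*Ctsg* and *S100a8*) and in 12.4% of all promoters. On the strand of the gene they were found in 1 of the 10, *S100a8*, 30 bases before the start, and in 7.59% of all promoters. The *Ctsg* match was on the opposite strand, 237 bases before the start. *Camp* had none of these letters in its window. These matches are letters in a window and were not tested as binding sites. The windows of *Prtn3*, *Lcn2* and *S100a8* lie inside the longer gene models of GENCODE.

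Levels between genes were compared over the 6 libraries as RPKM, the recovered reads scaled to exon length and library size. *S100a8* and *S100a9*, whose proteins pair as calprotectin, were highest, with means of 1517 (range 1045 to 1911) and 1451 (1175 to 1675). Their order held in 3 of 6 libraries only, so the pair was not separated. *Ngp*, a cathelicidin-related neutrophil granule protein, followed with a mean of 743 (639 to 899), and *Camp*, the cathelicidin precursor, with 369 (260 to 558). The ranges of *S100a9*, *Ngp*, *Camp* and *Ltf* did not overlap, and their order held in 6 of 6 libraries.

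*Ltf* (lactoferrin, which binds iron) had a mean RPKM of 147 (118 to 193) and *Mpo* (myeloperoxidase, which makes hypochlorous acid) one of 104 (72.5 to 146). *Elane* (neutrophil elastase) stood at 91.2 (67.3 to 120) and *Lcn2* (lipocalin 2, which binds bacterial siderophores) at 71.4 (55.8 to 82.6). The ranges of neighbours in the order from *Ltf* to *Lcn2* overlapped. The serine proteases *Ctsg* (cathepsin G) and *Prtn3* (proteinase 3) were lowest, at 40.0 (25.3 to 61.4) and 25.3 (18.7 to 32.0). Their ranges overlapped, although *Ctsg* was above *Prtn3* in 6 of 6 libraries. Per length, the late pair thus stood above all other members and *Lcn2* was the only secondary granule gene below a primary granule gene. Together the 10 genes took 0.339% to 0.467% of the reads in Control libraries and 0.417% to 0.494% in LS1 libraries.

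The libraries held 68803249 to 76581954 reads in Control and 82227711 to 88745366 in LS1, so every LS1 library was deeper. The fewest reads of any member in any library were 2002, for *Ctsg* in Control replicate 1. The deposited values are read counts divided by 1 size factor per library and are called normalized counts here. LS1 replicate 3 stood between the groups on the first principal component of all tested genes (35.1% of the variance). The labels give no sex, and the mean log2 level of 4 Y-linked genes ranged from 12.1 to 12.7 in Control replicate 3 and LS1 replicates 1 and 3, against 4.50 to 5.20 in the rest. Defining markers of the neutrophil (*Ly6g*, 717 to 1580 normalized counts, and *Cxcr2*, 1950 to 3678) and of cartilage (*Col2a1*, 1344212 to 2086285) were present in every library.

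The first question was whether the granule genes differed between LS1 and Control. The test was limma on log2(normalized count + 1), fitted to all 19308 genes with a mean of at least 20 reads, with Benjamini-Hochberg adjustment over all of them. All 10 members passed the filter on reads. After adjustment limma called 0 of the 10 members at 0.05, where it called 0.0725% of all genes tested (0.0104% higher and 0.0622% lower in LS1). On the recovered reads edgeR, DESeq2 and limma-voom also called 0 of the 10, against 0.0363%, 2.58% and 0.057% of all genes, and the fit with a replicate block called 0 of the 10, against 0.0622%. Before adjustment 2 of the 10, *Elane* and *Ltf*, were under 0.05, against 12.9% of all genes tested. That count was 0 without Control replicate 1 or 2 and 4 without Control replicate 3 or LS1 replicate 1. It was 1 without LS1 replicate 2 or 3. Of all 19308 genes tested, 1986, 1617 and 1740 were under 0.05 without Control replicate 1, 2 and 3 in turn. Without LS1 replicate 1, 2 and 3 in turn, 2348, 2098 and 3225 were. LS1 and Control did not overlap in 1 of the 10, *Ltf*, where LS1 was higher, and 10.3% of all genes tested showed that pattern (19.2% in either direction). With all 6 libraries these counts are near what the whole table gave. With 1 library left out, the unadjusted count fell below that share or rose above it, by the library.

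**Figure D1:**
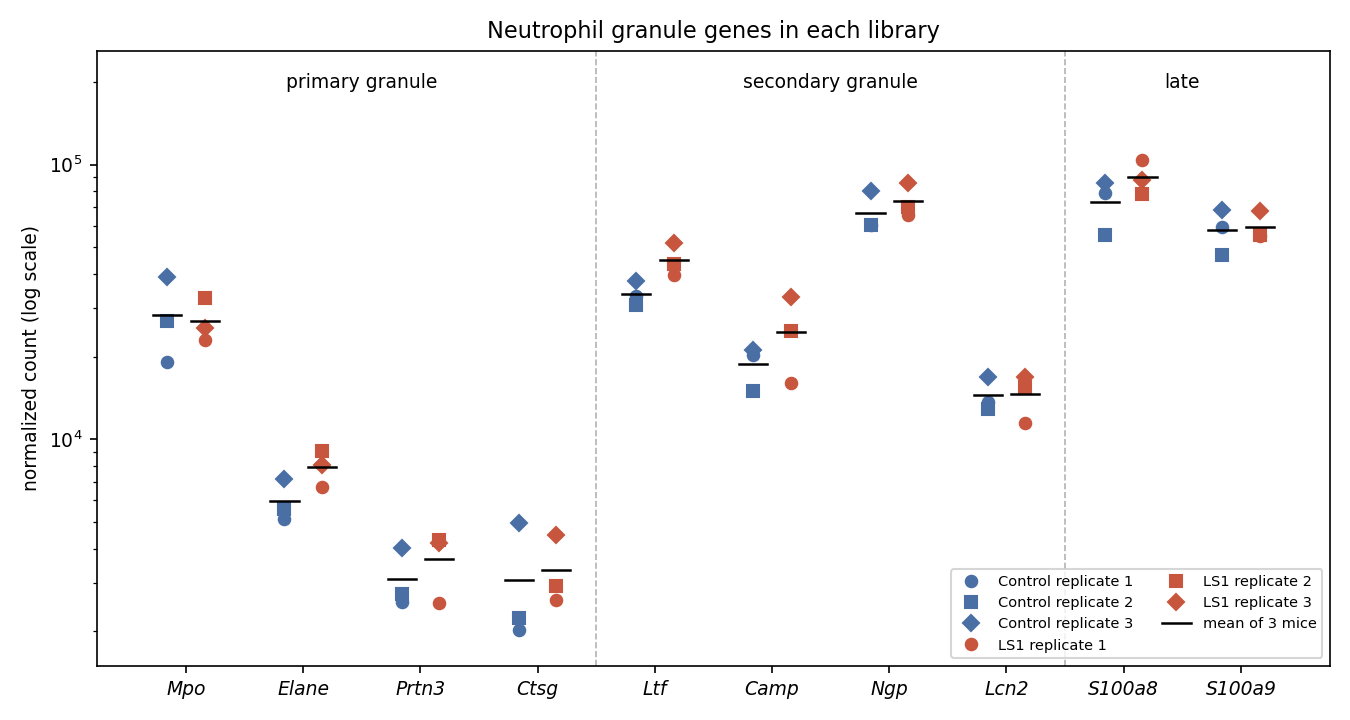
Normalized counts (log scale) of the 10 genes in the 3 Control (blue) and 3 LS1 (red) libraries, with bars at the mean of 3 mice. Only for Ltf do all LS1 points lie above all Control points, and Control replicate 3 is the highest Control library for each gene.

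Among the primary granule genes, *Mpo* (ENSMUSG00000009350, chromosome 11 of GRCm38 from 87793581 to 87804413) had 19176, 26896 and 39036 normalized counts in Control mice against 22938, 32687 and 25488 in LS1 mice. All LS1 values lay within the range of Control, whose highest library was 2.04 times the lowest. In limma its log2 fold change was -0.03 (standard error, SE, 0.24, 95% interval -0.56 to 0.51, adjusted p = 0.976 from limma). The antisense gene *Gm11505* overlaps *Mpo* but had at most 15 reads in a library.

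*Elane* (ENSMUSG00000020125, chromosome 10 from 79886247 to 79888215) had 5114, 5592 and 7183 normalized counts in Control and 6724, 9083 and 8073 in LS1. LS1 replicates 2 and 3 were above all Control libraries, and LS1 replicate 1 was below Control replicate 3. Control averaged 5963 ± 1083 and LS1 7960 ± 1184 (each SD, n = 3 mice). The log2 fold change of 0.42 (SE 0.16, 95% interval 0.06 to 0.78) was the largest of the 10 members but did not pass the threshold (adjusted p = 0.320 from limma).

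*Prtn3* (ENSMUSG00000057729) lies 3072 bases from *Elane* on chromosome 10, from 79874476 to 79883174. It had 2568, 2746 and 4014 normalized counts in Control and 2530, 4286 and 4211 in LS1. In LS1, replicates 2 and 3 were just above the highest Control library and replicate 1 was below the lowest. This gave a log2 fold change of 0.23 (SE 0.23, with an adjusted p of 0.706 from limma). Its gene model overlaps *Plppr3* on the opposite strand, which had 856 to 1609 reads, and the methods do not state whether counting used strand.

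*Ctsg* (ENSMUSG00000040314, chromosome 14 from 56099881 to 56102574) had 2020.0, 2242 and 4954 normalized counts in Control and 2609, 2928 and 4485 in LS1. Replicate 3 of each line was high and the other libraries were low, and the groups overlapped. This was the widest spread of the 10 genes, with the highest Control library at 2.45 times the lowest, and the interval of the log2 fold change of 0.20 ran from -0.66 to 1.07 (adjusted p = 0.855 from limma). A level 2.10-fold higher in LS1 is thus inside the interval for *Ctsg*.

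The secondary granule genes *Ltf*, *Camp* and *Ngp* all lie on chromosome 9. *Ltf* (ENSMUSG00000032496, from 111019271 to 111042767) had 33163, 30929 and 37724 normalized counts in Control and 39682, 43489 and 51827 in LS1. Every LS1 library was above every Control library. Control averaged 33939 ± 3463 and LS1 44999 ± 6212 (each SD, n = 3 mice), so that the log2 fold change came to 0.40 (SE 0.14, 95% interval 0.08 to 0.72, adjusted p = 0.298 from limma). The sign of *Ltf* held in each of the 20 alternative settings, with log2 fold changes from 0.30 to 0.49 and adjusted p-values from 0.141 to 0.631.

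*Camp* (ENSMUSG00000038357, from 109847379 to 109849617) had 20319, 15011 and 21068 normalized counts in Control and 16034, 24880 and 32974 in LS1. LS1 replicate 3 was 2.06 times LS1 replicate 1, the widest spread within LS1 of the 10 genes. Its log2 fold change was 0.34 (SE 0.25, with an adjusted p of 0.583 from limma), and it ran from 0.10 to 0.62 with each library left out in turn.

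*Ngp* (ENSMUSG00000032484, from 110419747 to 110423012) had 60372, 60467 and 80142 normalized counts in Control and 65831, 70110 and 85601 in LS1. Each line had 1 high library, replicate 3, and the groups overlapped. LS1 minus Control on the log2 scale was 0.14 (SE 0.16, 95% interval -0.21 to 0.50, adjusted p = 0.734 from limma).

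*Lcn2* (ENSMUSG00000026822, chromosome 2 from 32384633 to 32388252) had 13655, 12882 and 16813 normalized counts in Control and 11470, 15456 and 16878 in LS1. The LS1 libraries held both the lowest and the highest value. On the log2 scale LS1 minus Control was 0.0056 (SE 0.17, with an adjusted p of 0.995 from limma), with a 95% interval in linear terms from 0.777-fold to 1.30-fold.

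The late genes lie 22596 bases apart on chromosome 3. *S100a8* (ENSMUSG00000056054, from 90668978 to 90670035) had 79037, 55301 and 85459 normalized counts in Control and 103823, 78411 and 88187 in LS1. LS1 replicates 1 and 3 were above all Control libraries, and LS1 replicate 2 was inside their range. Fitted by limma, the log2 fold change was 0.31 (SE 0.18, 95% interval -0.08 to 0.71, adjusted p = 0.491 from limma).

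*S100a9* (ENSMUSG00000056071, from 90692632 to 90695721) had 59214, 46795 and 68264 normalized counts in Control and 55077, 55620.0 and 67561 in LS1. All LS1 values lay within the range of Control. Its log2 difference was 0.04 (SE 0.16, 95% interval -0.31 to 0.40, adjusted p = 0.936 from limma). LS1 replicate 1 thus had the highest *S100a8* of all libraries and the lowest *S100a9* of LS1, although the 2 proteins act as a pair.

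**Figure D2:**
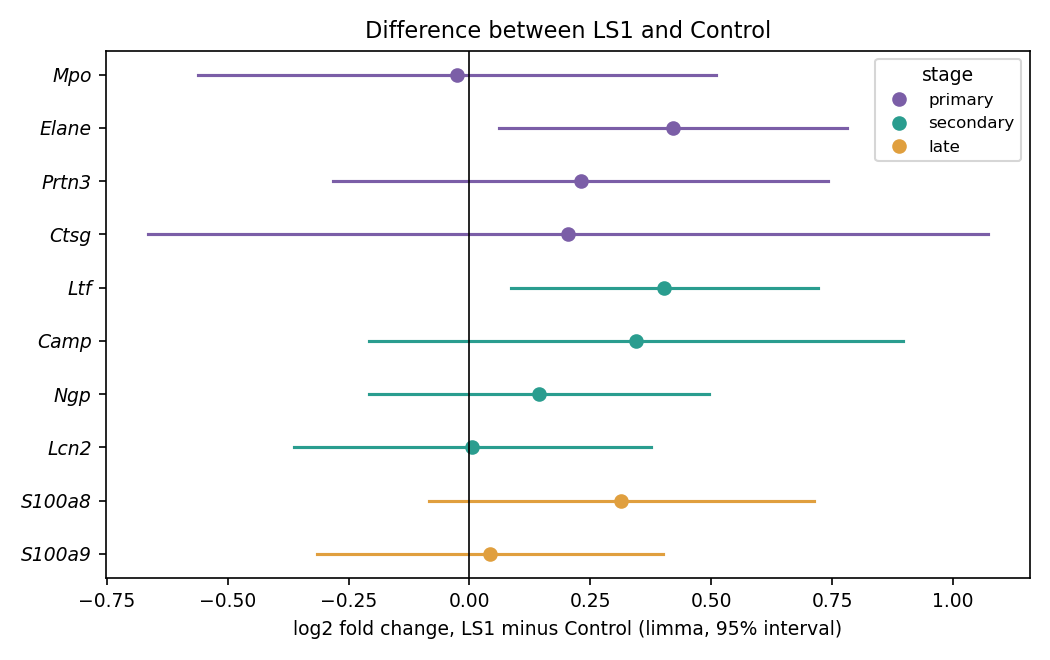
Log2 fold change of LS1 minus Control for each gene from limma, with points for the estimate and lines for the 95% interval, coloured by stage. The intervals of Elane and Ltf lie above 0 and the other 8 include 0.

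The second question was whether one stage differed more than another. The median log2 fold change was 0.22 over the 4 primary members, 0.24 over the 4 secondary members and 0.18 over the 2 late members. Over all genes tested the median was 0.0054. When 1 library at a time was dropped, the primary median ran from 0.03 (without Control replicate 1) to 0.50 (without Control replicate 3), the secondary median from 0.07 (without LS1 replicate 3) to 0.36 (without Control replicate 3) and the late median from 0.0098 (without Control replicate 2) to 0.30 (without Control replicate 3). Of the 10 members 9 had a log2 fold change above 0, against 50.7% of all genes tested. Within each stage the values ran from near 0 to between 0.31 and 0.42, so the spread among members of a stage was wider than the gap between the stage medians.

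The balance of stages was also set out in each library. The summed normalized counts of the secondary members were 4.42, 3.18 and 2.82 times those of the primary members in the Control libraries and 3.82, 3.14 and 4.43 times in the LS1 libraries. The late members summed to 4.79, 2.72 and 2.79 times the primary members in Control and to 4.57, 2.74 and 3.69 times in LS1. Control replicate 1 and LS1 replicate 1 thus had the highest share of late over primary transcripts in their line. It was low in Control replicates 2 and 3 alike and in LS1 replicate 2, and the lines overlapped in both ratios. *Mpo* made up most of the primary sum, with 19176 of 28877 normalized counts in Control replicate 1. The labels do not say whether mice with the same number have anything in common.

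Levels also varied between the mice of a line. In Control, replicate 3 had the highest value for 10 of the 10 genes. In LS1, replicate 1 had the lowest value for 9 of the 10, the exception being *S100a8*, and replicate 3 the highest for 6. The mean log2 level of the primary members, relative to the Control mean, was -0.36, -0.14 and 0.50 in Control and -0.11, 0.36 and 0.37 in LS1. For the secondary members it was -0.03, -0.18 and 0.21 in Control and -0.08, 0.24 and 0.51 in LS1, and for the late members 0.09, -0.34 and 0.25 in Control and 0.23, 0.04 and 0.26 in LS1. No stage separated the lines by this mean.

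Co-variation among the members was described by Pearson's r of the log2 levels over the 6 libraries, which share their 2 lines and their depth. The 13 pairs of the same stage had a median r of 0.77 (0.54 to 0.85), and the 32 pairs of different stages one of 0.60 (-0.08 to 0.97). Pairs of a primary and a secondary gene had a median of 0.68, near the 0.71 within the primary stage, and secondary pairs one of 0.81. Lower medians came with the late genes, 0.39 for primary with late and 0.59 for secondary with late. *Ctsg* and *Ngp*, of different stages and chromosomes, had the highest r (0.97, Spearman 0.94), and r was 0.99 without Control replicate 3. The neighbours *Elane* and *Prtn3* had an r of 0.85. *S100a8* had an r of -0.08 with *Mpo*, 0.04 with *Lcn2*, 0.12 with *Prtn3*, 0.39 with *Ctsg*, 0.45 with *Ngp* and 0.59 with *Ltf*. With the same genes in that order *S100a9* had an r of 0.25, 0.73, 0.58, 0.79, 0.82 and 0.60. The late pair had an r of 0.62 between them.

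**Figure D3:**
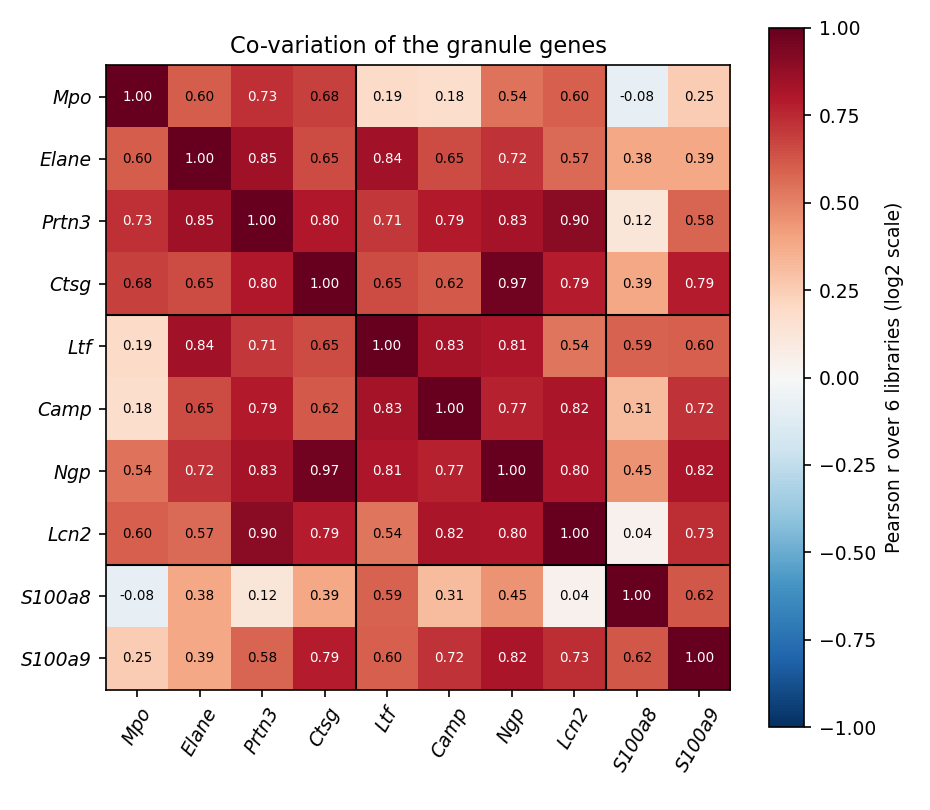
Pearson's r of log2(normalized count + 1) between each pair of genes over 6 libraries, with black lines between the primary, secondary and late genes. Most squares are positive, the row of S100a8 is palest and the square of Ctsg and Ngp is darkest off the diagonal.

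Other genes of the primary granule and of early progenitors were taken as companion lists. Of 6 further genes of the primary granule and of protease processing, 0 passed the adjusted threshold of limma in either direction and 2 had an unadjusted p-value under 0.05, both higher in LS1, where 7.08% of all genes tested did. These were *Ctsc* and *Lyz2*. *Ctsc* (cathepsin C, which activates the serine proteases of the granule) averaged 3982 ± 817 normalized counts in Control against 7250 ± 2295 in LS1 (each SD, n = 3), a log2 fold change of 0.83 (adjusted p = 0.230 from limma). *Lyz2* (lysozyme) had one of 0.57 (adjusted p = 0.230 from limma). Macrophages express both genes too. *Gusb*, a lysosomal glucuronidase, was lowest in the list with a log2 fold change of 0.09. The companion lists were judged by limma only, which called 14 genes of the whole table, where DESeq2 called 459. In the paper's own DESeq2 analysis *Ctsc* is listed as higher in LS1. The paper's qPCR, on growth plate tissue alone, found no significant difference for *Ctsc* in LS1.

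Among 6 myeloid progenitor genes 0 passed. *Ms4a3*, a marker of granulocyte and monocyte progenitors, averaged 2643 ± 413 normalized counts in Control against 4012 ± 538 in LS1 (each SD, n = 3), with every LS1 library above every Control library (log2 fold change 0.61, adjusted p = 0.220 from limma). *Myb*, a transcription factor of immature blood cells, had a log2 fold change of -0.36 (adjusted p = 0.332 from limma), with every LS1 library below every Control library. That pattern, with every LS1 library below every Control library, was found in 8.94% of all genes tested.

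Of 10 tested further genes of the secondary granule, 9 had a log2 fold change above 0, with a median of 0.40, and 0 passed. Before adjustment 4 of them were under 0.05, all higher in LS1, against 7.08% of all genes tested. In 3 of the 10 every LS1 library was above every Control library, against 10.3% of all genes tested. *Lyz1*, a near copy of *Lyz2* whose reads may be shared with it, had the highest (0.68, adjusted p = 0.344 from limma). *Itgb2l*, an integrin subunit, had the lowest (-0.57, adjusted p = 0.412 from limma). *Chil3*, the chitinase-like protein Ym1, averaged 15800 ± 3443 normalized counts in Control against 21357 ± 2852 in LS1 (each SD, n = 3), and its groups did not overlap (chosen after its values were seen). *Bpi*, with 2 to 23 reads in a library, was under the filter. Among 6 genes of the gelatinase granule 0 passed, and log2 fold changes ran from -0.08 for *Retnlg*, a resistin-like secreted protein, to 0.99 for *Slc11a1*, a metal transporter that macrophages also use (adjusted p = 0.910 and 0.327 from limma).

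The 18 genes of the mature neutrophil's surface and cytosol had a median log2 fold change of 0.43, with 16 above 0 and 0 past the adjusted threshold. Before adjustment 9 genes higher and 1 lower in LS1 were under 0.05, against 7.08% of all genes tested higher and 5.86% lower by that measure. *Stfa3*, a stefin that inhibits cysteine proteases, had the highest log2 fold change (0.86, SE 0.20, adjusted p = 0.184 from limma). Stefin A genes are near copies of each other and reads can be split among them. *Wfdc21*, a small secreted protein, had the lowest, -0.80 (SE 0.19, with an adjusted p of 0.182 from limma), with every LS1 library below every Control library. The mean log2 level over this list, relative to the Control mean, ran between -0.16 and 0.19 for Control mice, and LS1 mice lay between 0.34 and 0.49.

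The NADPH oxidase makes the superoxide that MPO's substrate derives from. Of its 6 genes 0 passed, with *Cybb*, the membrane subunit that macrophages share, highest (log2 fold change 0.78, adjusted p = 0.184 from limma) and *Rac2*, a small GTPase, lowest (-0.14, adjusted p = 0.723). Of 11 tested regulators of granulocyte formation 0 passed. *Cebpb*, which drives emergency granulopoiesis, had the highest log2 fold change (0.55, adjusted p = 0.351 from limma) and *Lef1* the lowest (-0.37, adjusted p = 0.370 from limma). *Cebpe*, which is needed for the secondary granule genes, had -0.18, *Gfi1* -0.14 and *Spi1*, which encodes PU.1, 0.09 (all 3 chosen after their values were seen). Of 5 tested chemokine and receptor genes of neutrophil retention and release 0 passed, and *Cxcl1* and *Cxcl5* stood at 0.55 and -0.75 with means under 50 normalized counts in both lines.

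**Figure D4:**
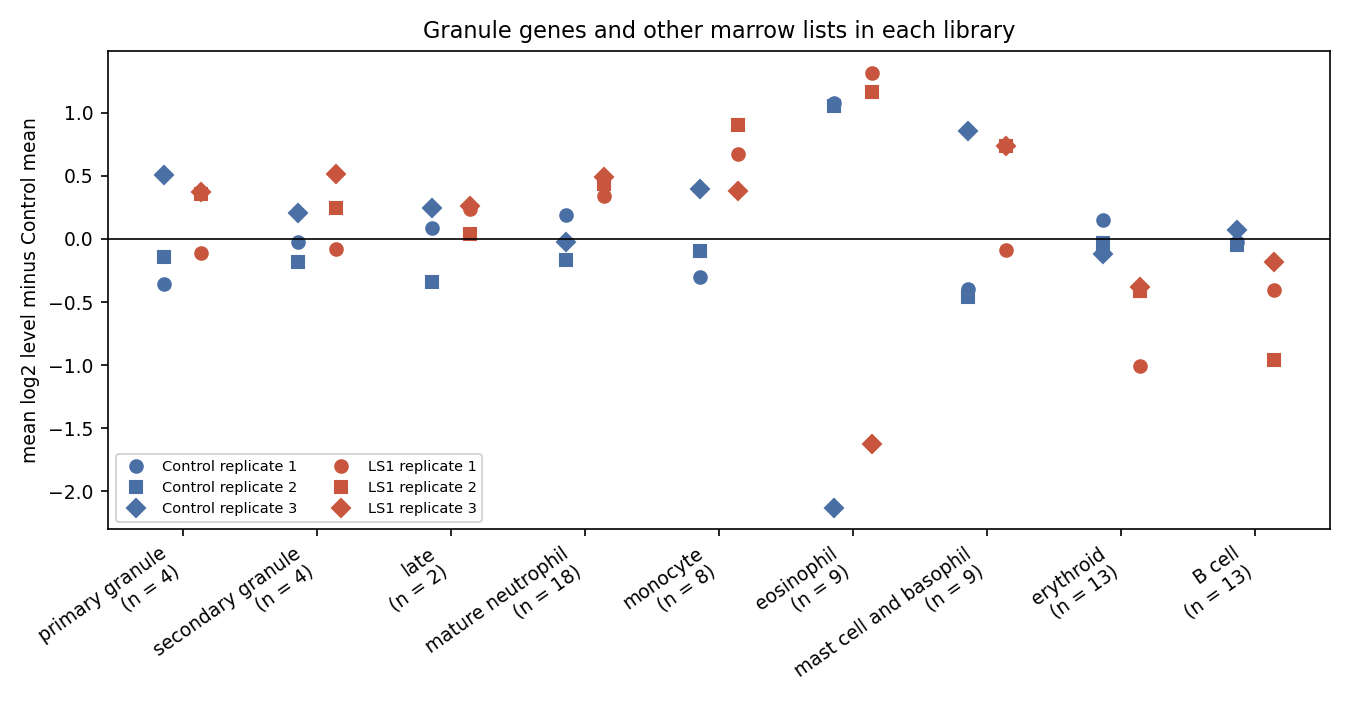
Mean log2 level of each gene list minus the Control mean, 1 point per library, for the granule genes and other marrow lists, with the number of genes under each name. The erythroid points of LS1 lie below those of Control, and the eosinophil points of replicate 3 of both lines lie far below the others.

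Markers of other marrow cells varied between the libraries as well. Primary granule enzymes are also made by monocyte precursors, and of 8 monocyte genes 8 had a log2 fold change above 0 and 0 passed, from 0.09 for *Csf1r*, the receptor of M-CSF, to 1.32 for *Ly6c2* (adjusted p = 0.876 and 0.213 from limma). Relative to the Control mean the monocyte list lay between -0.30 and 0.40 for Control mice and between 0.38 and 0.90 for LS1 mice. The 10 macrophage genes lay between -0.10 and 0.14 for Control mice and between 0.11 and 0.63 for LS1 mice, and the 12 interferon-stimulated genes at 1.77, 2.85 and 0.04 in LS1 replicates 1, 2 and 3. Of 13 B cell genes 12, and of 8 megakaryocyte and platelet genes 8, had a log2 fold change under 0, of 10 chondrocyte genes 10 had one above 0, and limma called 0 of these after adjustment. Before adjustment 4 monocyte and 6 chondrocyte genes were under 0.05 and higher in LS1, against 7.08% of all genes tested. Lower in LS1 by that measure were 7 B cell and 4 megakaryocyte and platelet genes, against 5.86% of all genes tested. The part of these cells in the levels of the granule genes was not tested. The paper, which used DESeq2, lists *Mpeg1* and *Hapln1*, the highest of the macrophage and chondrocyte lists, as higher in LS1. It lists *Col2a1*, the lowest of the chondrocyte list, as not different. The paper's qPCR, on growth plate tissue alone, found no significant difference for *Mpeg1* or *Hapln1* in LS1.

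Erythroid genes were lower in LS1 by their means. All 13 had a log2 fold change under 0 and 2 passed, the globin genes *Hba-a2* (-1.42, adjusted p = 0.0291 from limma) and *Hbb-bs* (-0.95, adjusted p = 0.0408 from limma), whose reads near copies can share. The summed normalized counts of the 10 granule genes were 0.120, 0.132 and 0.181 times those of the 13 erythroid genes in Control and 0.307, 0.260 and 0.297 times in LS1. The lines did not overlap in this ratio, nor in the erythroid sums (1954488 to 2453373 in Control, 1062795 to 1297632 in LS1). They did overlap in the granule sums (258861 to 364657 in Control, 326718 to 385284 in LS1), so the ratio separated through its erythroid part. Without the 4 globin genes the ratio was 0.550, 0.498 and 0.819 in Control and 1.10, 0.740 and 0.997 in LS1. There LS1 replicate 2 was below Control replicate 3. The ratio is given without a test, since it sums over the chosen members.

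The nearest protein-coding genes on each side were read as a check on position. None of those tested passed the adjusted threshold of limma. *Cfd*, the complement factor D gene 2637 bases from *Elane*, had an r of -0.45 with it over the 6 libraries, while *Mcpt8* and *Gzme*, which flank *Ctsg* and encode proteases of the same family, had an r of 0.74 and 0.86 with *Ctsg*. *Nme6* beside *Camp* and *1110008P14Rik* beside *Lcn2* had an r of 0.96 and 0.95 with those genes. *Plppr3*, which overlaps *Prtn3* on the opposite strand, had an r of 0.93 with it, and whether reads of one were counted for the other was not tested. *Ptges2*, on the other side of *Lcn2*, had an r of 0.87 with that gene and *Ccrl2* beside *Ltf* one of -0.59. The remaining tested neighbours were *Tspoap1* beside *Mpo* (r -0.34), *Cdc25a* beside *Camp* (-0.15), and *Ptpn23* and *Klhl18* beside *Ngp* (-0.02 and 0.45). *S100a7a*, 10308 bases from *S100a8*, had 12.1, 17.7 and 21.02 normalized counts in Control and 76.2, 40.0 and 82.1 in LS1 (log2 fold change 1.87, SE 0.43, adjusted p = 0.176 from limma). *Lpo*, a peroxidase gene 2014 bases from *Mpo*, had at most 17.7 normalized counts in a library. *Lpo*, *Rtp3* beside *Ltf* and *Pglyrp4* beside *S100a9* were under the filter.

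Among 14746 genes with a mean of at least 100 normalized counts, those most like the mean log2 level of a stage over the 6 libraries were named. For the primary stage they were *Flywch2*, *Fam89a*, *Prkcsh*, *Pcdh1* and *Mrgpra2b* (each r 0.99 after rounding), and 130 genes had an r above 0.9. For the secondary stage they were *Mrpl55*, *Cd177*, *Gas6*, *Klhl22* and *Rabepk* (r from 0.99 to 0.98), and 213 genes had an r above 0.9. *Cd177* encodes a surface protein of neutrophils that is stored in the secondary granule. For the late stage they were *2010005H15Rik*, *Myo16*, *Gm12933*, *Il13ra2* and *Cnr1* (r from 0.99 to 0.98), and 56 genes had an r above 0.9. With 6 libraries many genes reach such values.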

How the data were processed

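Polyadenylated RNA of 3 Control and 3 LS1 mice was measured, 1 library per mouse. The authors aligned reads with HISAT2 2.0.2 (genome build GRCm38), summarised them over Ensembl release 84 genes by featureCounts 1.4.6, and used DESeq2. Each deposited value is a signal, a gene's count over the size factor of its library, and no genes were filtered. Reads were recovered by dividing by the value of 1 read, and 100% of values came out whole (tolerance 0.01). In Control replicate 1 this step was near 1, at 1.01, and there too 100% of values came out whole. Reads can be split among near copies.

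limma 3.58.1 (R 4.3.3) was fitted on log2(value + 1), with trend and robust moderation, to 19308 genes with a mean of at least 20 reads. A fold change on that scale understates the change of low genes. edgeR 4.0.16, DESeq2 1.42.0 and limma-voom on the recovered reads were alternatives, and the scripts were tested on simulated data. Gene models came from GENCODE M21 (99.1% of identifiers matched) and exon lengths from the union of its exons. With 3 mice per group an exact permutation test cannot go below p = 0.1, so none was used. The members and lists were chosen with earlier results of these data known. The rule for named genes took the 10 members, the highest and the lowest gene of each companion list and any that passed, the neighbours of each member and the 5 genes most like each stage. Lists of other cell types are mostly given by counts or levels, without naming both ends. *Lyz2*, *Chil3*, *Cebpe*, *Gfi1*, *Spi1*, *Ly6g*, *Cxcr2*, *Prg2*, *Epx* and *Ccr3* fall outside the rule and were chosen after their values were seen.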

Additional observations from a re-analysis of the deposited data

How the results depend on the processing

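The number of members past the adjusted threshold was 0 in each of the 20 alternative settings, and the stage medians stayed above 0 in each. Leaving out 1 library took the primary median from 0.22 down to 0.03, the secondary from 0.24 to 0.07 and the late from 0.18 to 0.0098. The letter that opens each title was tried as a replicate block. It called 0 of 10 members, and 12 genes in all against 14. With this block 3 of the 10 members had an unadjusted p under 0.05, as did 17.5% of all genes tested. Without the block 12.9% of all genes tested did. The letters do not mark a shared family in the labels, and the deviations from the group means of same-lettered libraries correlated at 0.054, 0.021 and 0.22, so they were not taken as pairs, and not every library correlated best with its own letter. *Elane*, *Prtn3*, *Ltf*, *Camp*, *Ngp* and *S100a8* had log2 fold changes above 0 in all 20 settings. With each library left out in turn *Elane* ran from 0.32 to 0.56, *Prtn3* from 0.10 to 0.48, *Ltf* from 0.30 to 0.49, *Camp* from 0.10 to 0.62, *Ngp* from 0.03 to 0.28 and *S100a8* from 0.12 to 0.44. The other 4 changed sign in some settings. With each library left out *Mpo* ran from -0.28 to 0.24, *Ctsg* from -0.037 to 0.61, *Lcn2* from -0.11 to 0.17 and *S100a9* from -0.10 to 0.17. *Lcn2* was -0.0067 with limma-voom, -0.0069 with TMM, -0.0116 with quantile normalization and -0.0057 with total count scaling, and *S100a9* was -0.0071 with quantile normalization. With Y-linked expression as a covariate *Ctsg* was -0.0051, *Lcn2* -0.014 and *S100a9* -0.031. The cause was not tested. Without LS1 replicate 3 limma called 324 genes in the whole table, and 0 of them were members.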

Other observations

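Eosinophils store their own granule proteins, and most of the 9 listed genes were low in replicate 3 of each line. *Prg2*, the eosinophil major basic protein, had 30628, 31670 and 2585 normalized counts in Control mice against 32719, 42235 and 2650 in LS1 mice. *Epx*, the eosinophil peroxidase, had 10709, 13005 and 1123 in Control and 10993, 13477 and 1079 in LS1. *Ear6*, an eosinophil-associated ribonuclease, had 1857, 2145 and 43.1 in Control and 1751, 2028 and 44.8 in LS1. *Ear1*, another of these ribonucleases, had 1646, 952 and 44.2 in Control and 2607, 1683 and 99.8 in LS1. Replicate 3 was the lowest library of its line for 8 of the 9 genes in LS1 and 9 of the 9 in Control. The exception was *Ccr3*, the eotaxin receptor, with 680.1, 694 and 343 in Control and 901, 440.3 and 772 in LS1. *Prg2*, *Epx* and *Ccr3* were named after their values were seen. In the same 2 libraries *Ctsg* was at its highest values and *Ngp*, *Lcn2* and *S100a9* were each highest of their line, so these neutrophil genes were not low there. Of the 9 eosinophil genes 0 passed the adjusted threshold of limma between the lines, and 0 had an unadjusted p under 0.05.

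Genes of mast cells and basophils also varied between mice. *Mcpt8*, a basophil protease gene that lies beside *Ctsg*, had 1669, 1586 and 5179 normalized counts in Control and 958, 1440.3 and 2209 in LS1. *Tpsab1*, a mast cell tryptase, had the highest log2 fold change of the 9 genes (2.38, standard error 0.63, adjusted p = 0.230 from limma), with 36.3, 12.2 and 68.6 in Control and 86.7, 292 and 189 in LS1, and 0 of the 9 passed. These values are given without an explanation.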
